A study of Homo sapiens with 16 samples.

Results

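The genes described here are 52 mitotic genes, transcribed mainly in the G2 and M phases of the cell cycle. They were taken by name from the 33937 genes of the deposited count table, after its Ensembl identifiers had been matched to human symbols, by a rule that lists gene names and uses no measured value, although earlier results of these data were known when it was set. All 52 were found and all 52 passed the filter on low counts in every comparison. Their counts ran from 47 to 9323 reads per library. The RNA came from HCT116, an established human colorectal carcinoma line, and was sequenced in 16 libraries, 4 in each of 4 groups. The cells carried a lentiviral construct for a short hairpin RNA (shRNA), inducible by doxycycline (dox) and directed against *NAA40* (NAA40-KD), which encodes an N-terminal acetyltransferase of histones, or holding a scrambled sequence (SCR). Each line, SCR or NAA40-KD, was grown for 96 h either with 1 µg/ml dox, written (+dox), or without it, written (−dox). A single shRNA line stood for the knockdown, and a single scrambled line for the control.

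Entry into mitosis is driven by the kinase CDK1 with cyclins A and B, and exit from it by the anaphase-promoting complex, which marks cyclin B and securin for destruction once the spindle checkpoint is satisfied. Most of the genes involved are silent in G1 and are transcribed late in the cycle, through promoters that hold a cell cycle genes homology region (CHR), bound by the DREAM complex in quiet cells and by MuvB with B-MYB and FOXM1 in dividing ones, and often CCAAT boxes, bound by NF-Y. The level of these transcripts in a culture therefore follows both the share of cells in G2 and M and the RNA made per cell. In bulk RNA such as this, fewer cells in these phases and less RNA per cell cannot be told apart.

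Because a shared promoter element is a feature of this gene group that the choice of genes did not use, the stretches that carry it are shown for 6 members. A promoter of 300 bases, from 250 before to 50 after the annotated start, was found for 45 of the 52 members in RefSeq (GRCh38.p14). *FOXM1*, *AURKA*, *TTK*, *BUB3*, *UBE2C*, *BIRC5* and *TPX2* had no entry. The stretches of 66 bases below lie before the RefSeq start and outside the gene as annotated by GENCODE. Capitals mark each whole CHR core (TTTGAA, or TTCAAA on the other strand) and each whole CCAAT box (CCAAT, or ATTGG on the other strand). In *MKI67* (chr10:128126441-128126506, minus strand) and *KIF4A* (chrX:70290016-70290081, plus strand), which were called lower in NAA40-KD (−dox), and in *KIF11* (chr10:92593048-92593113, plus strand), the motifs lie close to the start. *CDC20* (chr1:43358862-43358927, plus strand) and *TOP2A* (chr17:40418036-40418101, minus strand) were called lower in NAA40-KD (+dox), and *ECT2* (chr3:172750557-172750622, plus strand) was called in neither comparison of the lines with all libraries.
MKI67: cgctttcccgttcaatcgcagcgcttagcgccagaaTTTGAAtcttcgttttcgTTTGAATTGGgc
KIF4A: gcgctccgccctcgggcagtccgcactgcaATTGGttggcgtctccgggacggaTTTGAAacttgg
KIF11: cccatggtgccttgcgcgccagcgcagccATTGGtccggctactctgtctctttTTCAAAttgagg
CDC20: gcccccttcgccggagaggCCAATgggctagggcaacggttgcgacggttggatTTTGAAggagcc
TOP2A: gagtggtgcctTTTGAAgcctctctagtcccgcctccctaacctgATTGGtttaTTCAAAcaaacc
ECT2: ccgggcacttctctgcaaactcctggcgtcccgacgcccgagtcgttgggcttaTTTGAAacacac
The CHR core was present on either strand in 31 of the 45 member promoters (68.9%), against 5324 of all 35116 promoters of that length (15.2%). In the bases before the start alone it was in 51.1% of member promoters and 13.3% of all. The CCAAT box was in 34 of 45 (75.6%), against 34.6% of all promoters, and 24 members held both. The motifs can overlap, as in *MKI67*, where the CHR core nearest the start shares its last base with an ATTGG. For comparison, 57.1% of 49 promoters of other G2/M genes held the CHR core and 0 of 28 promoters of S phase genes did. A match to these letters is a description of the sequence and does not show that a factor binds there.

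Total counts ranged from 11065606 to 13855486 per library, so levels are given as CPM, the count of a gene scaled to the library total, after TMM normalisation, which rescales libraries to each other. *NAA40*, the targeted gene, went against the labels. Its level was 29.4 ± 3.62 CPM (mean ± SD, n = 4) in SCR (−dox), 27.3 ± 1.44 in SCR (+dox), 11.8 ± 1.93 in NAA40-KD (−dox) and, at the other dox label, 30.3 ± 1.58 in NAA40-KD (+dox). It was 40.2% of the SCR level in the libraries labelled NAA40-KD (−dox) (two-sided exact permutation p = 0.0286, as low as groups of 4 can give) and 111% in those labelled NAA40-KD (+dox) (exact permutation p = 0.0571). All groups are therefore called by their labels, and the directions below hold for the libraries so labelled. In the count table the columns of the (−dox) libraries of both lines carry the abbreviation wDox, which the labels do not spell out, and the samples' treatment fields, which say no doxycycline, were followed. Whether dox labels were exchanged was not tested, and an exchange would swap the meaning of (−dox) and (+dox) in every comparison it touched. Of 8 colon epithelium markers, 7 were above 1 CPM in every library (*VIL1* was not). Leukocyte markers summed to at most 0.425 CPM and endothelial markers to at most 2.96 CPM, and of 5 fibroblast markers 1, *COL1A1*, was above 1 CPM in every library.

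Library 4 of NAA40-KD (−dox) stood apart from the other 15. In that library, genes with under 40% GC in their longest transcript were lower than genes with at least 60% GC by 2.00 on the log2 scale. These are medians of 2192 and 2193 genes, each gene set against its mean. The same difference lay between −0.36 and 0.37 in the other libraries. The members had a GC content of 34.2% to 59.6% (median 42.2%). Relative to the SCR (−dox) mean, the 26 members of lower GC content averaged −1.79 in that library and the 26 of higher GC content −0.65 on the log2 scale. In libraries 1, 2 and 3 of the same group the corresponding averages were −0.41 and −0.55, −0.74 and −0.89, and −0.40 and −0.52. Markers of fibroblasts, leukocytes and endothelium also summed to 198.7 CPM there, nearly all of it *COL1A1*, against 58.4 to 96.3 CPM elsewhere, and the part of either feature in the results was not tested. Results that rest on this library are given with it and without it, and with an offset for GC content fitted to each library.

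**Figure D1:**
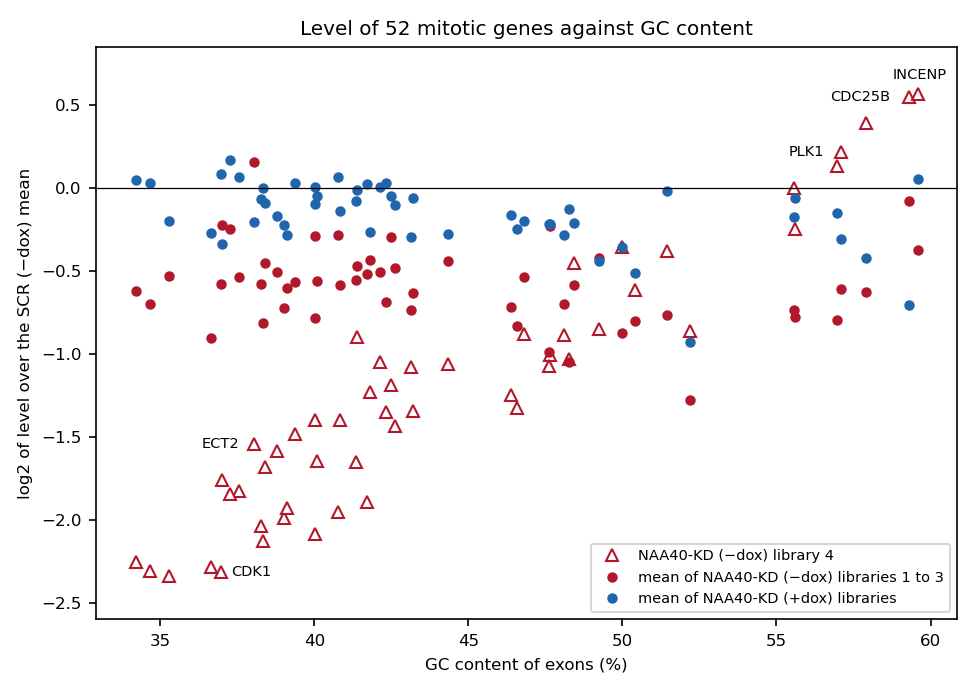
Level of each of the 52 mitotic genes, as log2 of its CPM over the SCR (−dox) mean (vertical axis). The horizontal axis is the GC content of the exons of its longest transcript in percent. Open triangles are NAA40-KD (−dox) library 4, filled red circles the mean of NAA40-KD (−dox) libraries 1 to 3 and blue circles the mean of the 4 NAA40-KD (+dox) libraries. The triangles climb with GC content, from CDK1 far below 0 to INCENP above it, while the filled red circles lie below 0 for every gene other than ECT2.

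The SCR libraries were close to each other in the summed level of the mitotic genes, while the genes themselves spanned a wide range. Per kilobase of exon, the mean level in SCR (−dox) was highest for *CDC20*, the activator of the anaphase-promoting complex (107 CPM per kb), followed by *CDC25B* (88.0), *TPX2* (71.0), *NUSAP1* (56.4), *CCNB1* (55.6) and *MKI67* (54.1). It was lowest for *SGO1* (3.76) and *CDC25C* (3.84). As a group, the 52 genes averaged 0.00 ± 0.048 in SCR (−dox) and −0.07 ± 0.10 in SCR (+dox), against −0.74 ± 0.36 in NAA40-KD (−dox) and −0.16 ± 0.027 in NAA40-KD (+dox), in log2 units relative to the SCR (−dox) mean (mean ± SD over libraries, n = 4). Without library 4 the NAA40-KD (−dox) average was −0.59 ± 0.20 (n = 3). Summed over the genes, the levels were 5982 ± 105.6, 5641 ± 279.9, 3893 ± 522.4 and 5269 ± 97.29 CPM in the same order of groups, and 4071 ± 469.5 CPM in NAA40-KD (−dox) without library 4.

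**Figure D2:**
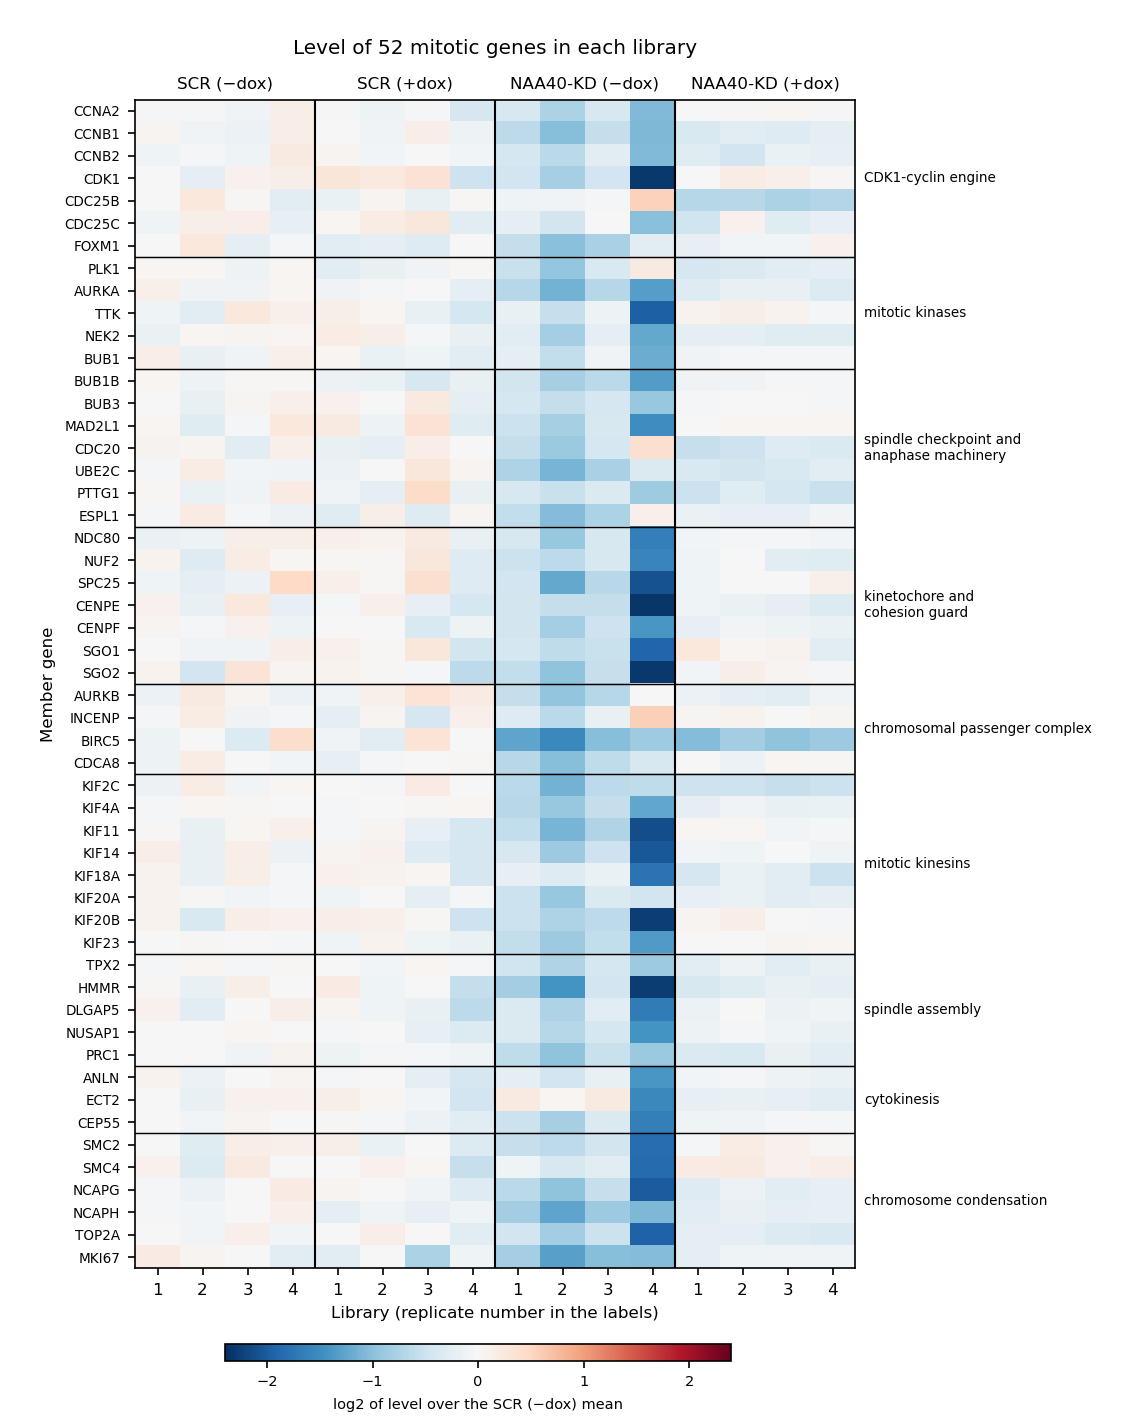
Level of the 52 mitotic genes (rows, grouped by role) in each of the 16 libraries (columns, grouped by label), as log2 of CPM over the SCR (−dox) mean, with blue for lower and red for higher. The 4 NAA40-KD (−dox) columns are the bluest, averaging −0.48, −0.82, −0.46 and −1.22, and the fourth of them is red in CDC25B, PLK1, CDC20, ESPL1 and INCENP. In NAA40-KD (+dox) the bluest rows are BIRC5, CDC25B and KIF2C, followed by PTTG1, CDC20 and UBE2C.

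The comparison of the lines without dox asked how the libraries labelled NAA40-KD (−dox) differed from those labelled SCR (−dox). The mitotic genes were lower nearly throughout, with 51 of 52 log2 fold changes below 0 (46.2% of all 13903 genes tested were below 0) and a median of −0.72, or 60.6% of the SCR level, beside a median of 0.04 over all genes tested. In 40 members every NAA40-KD (−dox) library was below every SCR (−dox) library, which held for 11.9% of all genes. With all 8 libraries, 12 members were called lower and 0 higher at an adjusted p under 0.05 in edgeR's quasi-likelihood test, against 3.54% of all genes called lower and 2.88% higher. *MKI67* and *BIRC5* were also past a log2 fold change of 1 in size, as were 1.85% of all genes on the lower side. At an unadjusted p under 0.05 stood 40 members and 23.6% of all genes. With a block for the replicate number, 0 members and 58 of all 13903 genes were called lower. In that fit 39 members had an unadjusted p under 0.05, and the replicate numbers were not taken to pair the samples. Without NAA40-KD (−dox) library 4 the median was −0.58 and 45 members were called lower (19.4% of all genes), and with the GC offset −0.64 and 49 (18.3%). Leaving out any other single library left 2 to 9 members called lower, beside 147 to 235 of the 13734 to 13785 genes tested. With all 8 libraries 492 of 13903 genes were called lower. The number called thus changed whichever library was left out, for the members and for all genes alike. Leaving out a library also makes its group smaller, and the part of this was not tested. The median of the members stayed between −0.80 and −0.58 over the 8 fits with a library left out. Only *MKI67* and *NCAPH* were called in all 8 of them.

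Among the genes of chromosome condensation, *MKI67* and *NCAPH* fell furthest for their spread. *MKI67* (ENSG00000148773) encodes Ki-67, which coats mitotic chromosomes and is the standard marker of dividing cells. It was at 792, 717, 684 and 579 CPM in SCR (−dox) and at 389, 281, 339 and 336 CPM in NAA40-KD (−dox). The groups were far apart and library 4 lay among the others. The log2 fold change was −1.03 (SE 0.15, edgeR adjusted p = 0.00638), which is 48.8% of the SCR level, and −1.05 (adjusted p = 1.22e-05) without library 4. *NCAPH* (ENSG00000121152), the subunit that closes the ring of condensin I, was at 57.2, 56.3, 58.2 and 63.5 CPM against 33.1, 24.4, 32.0 and 27.8 CPM. It too kept a clear gap between the groups, with a log2 fold change of −0.99 (SE 0.15, edgeR adjusted p = 0.00708).

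The other condensation genes had fold changes from −0.95 to −0.52 and larger errors. *TOP2A*, the topoisomerase that untangles sister chromatids, was at 200.2, 189, 217 and 190.1 CPM in SCR (−dox) and at 145, 112, 139 and 52.1 CPM in NAA40-KD (−dox). Its groups did not overlap, but library 4 was far below the other 3. Its log2 fold change was −0.83 (SE 0.27, edgeR adjusted p = 0.103) with all libraries and −0.60 (SE 0.098, adjusted p = 0.000253) without library 4. The condensin subunits *SMC2*, *SMC4* and *NCAPG* were at −0.77, −0.52 and −0.95 and were not called. Without library 4, *SMC2* (−0.55) and *NCAPG* (−0.72) were called, and *SMC4*, at −0.26 with an adjusted p of 0.0875, was not.

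In the CDK1-cyclin engine, 1 of 7 genes was called lower with all 8 libraries and 5 without library 4. *CCNB1*, which encodes cyclin B1, the partner of CDK1 at mitotic entry, was at 148, 134, 129 and 158 CPM in SCR (−dox) and at 91.4, 69.9, 95.7 and 67.1 CPM in NAA40-KD (−dox). No library of the second group reached the lowest of the first, and the log2 fold change was −0.80 (SE 0.17, edgeR adjusted p = 0.0227). *CDK1* itself was at 98.9, 84.1, 107 and 109 CPM against 71.9, 56.8, 71.8 and 19.96 CPM. Library 4 held less than any other by a wide margin. The log2 fold change of *CDK1* was −0.86 (SE 0.33, edgeR adjusted p = 0.159) with it and −0.58 (SE 0.11, adjusted p = 0.000726) without it.

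*FOXM1*, the forkhead factor that acts on many of these promoters, was at 61.5, 74.2, 53.7 and 60.6 CPM in SCR (−dox) against 42.0, 31.0, 36.3 and 52.2 CPM in NAA40-KD (−dox). The groups were separated narrowly, with library 4 the nearest to SCR. The log2 fold change was −0.62 (SE 0.20, edgeR adjusted p = 0.0906), and −0.78 (SE 0.12, adjusted p = 0.000168) without library 4. The cyclin genes *CCNA2* (−0.61) and *CCNB2* (−0.57) were not called with all 8 libraries, and were called without library 4 and with the GC offset. The CDC25 phosphatases, which remove the inhibitory phosphates from CDK1, stood outside this pattern. *CDC25C* was at −0.38 and *CDC25B* at 0.11 (SE 0.19, edgeR adjusted p = 0.775), and neither was called in any of the 3 fits. *CDC25B* was at 372, 449, 383 and 315 CPM in SCR (−dox) and 351, 356, 364 and 551 CPM in NAA40-KD (−dox). Those ranges overlapped, and library 4 was the highest of all 8.

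**Figure D3:**
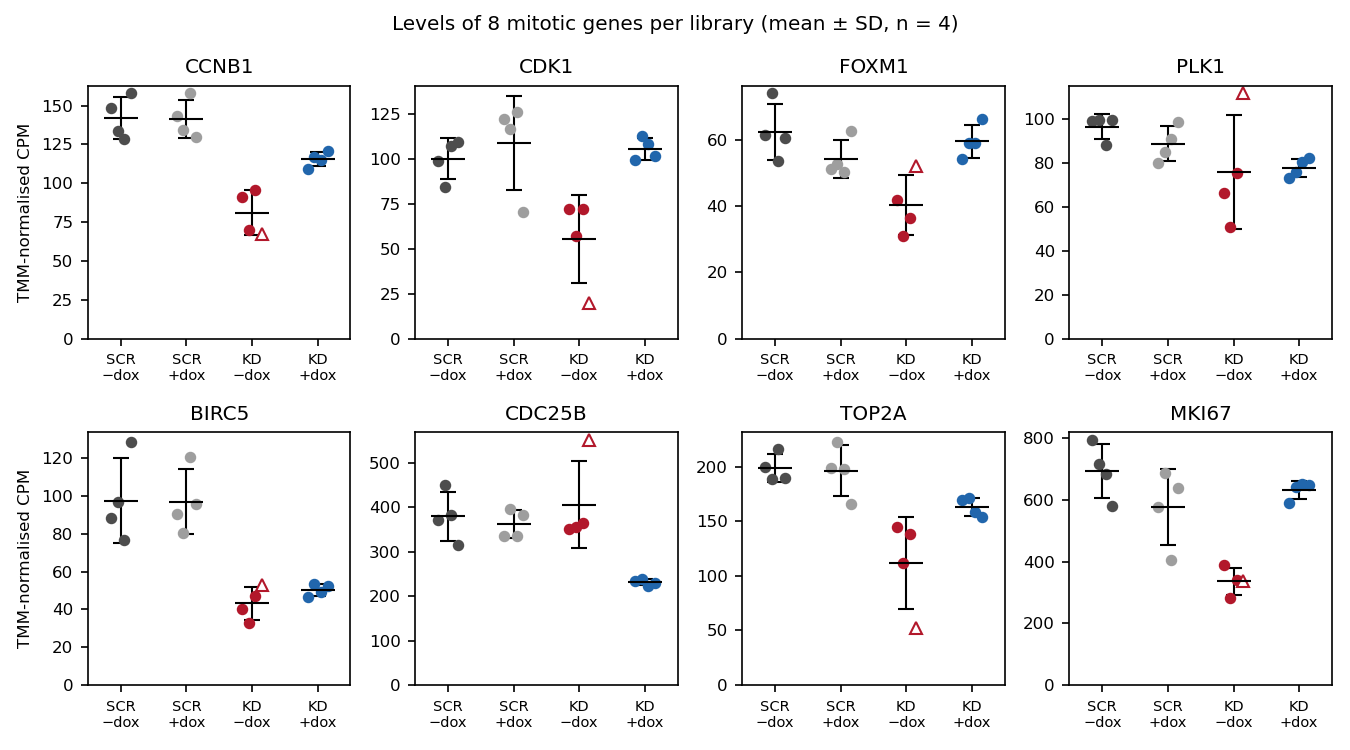
TMM-normalised CPM (vertical axis, from 0) of CCNB1, CDK1, FOXM1, PLK1, BIRC5, CDC25B, TOP2A and MKI67 in each library of the 4 groups (horizontal axis), with the mean as a wide bar and the SD as whiskers (n = 4). Open triangles mark NAA40-KD (−dox) library 4. MKI67 falls to 281 to 389 CPM in NAA40-KD (−dox) and not in NAA40-KD (+dox), BIRC5 is low in both NAA40-KD groups, and CDC25B is low in NAA40-KD (+dox), at 222 to 237 CPM.

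Of 5 mitotic kinases, 1 was called lower. *AURKA*, the Aurora kinase of centrosomes and spindle poles, was at 78.2, 68.2, 68.3 and 74.2 CPM in SCR (−dox) and at 44.7, 32.9, 44.9 and 28.7 CPM in NAA40-KD (−dox), with no overlap. Its log2 fold change was −0.93 (SE 0.18, edgeR adjusted p = 0.0172), or 52.6% of the SCR level. *PLK1*, the Polo kinase needed from mitotic entry to cytokinesis, was at 99.1, 99.2, 88.2 and 99.3 CPM against 66.4, 50.6, 75.1 and 112 CPM. Libraries 1 to 3 were below every SCR library and library 4 above every one. The value for *PLK1* was therefore −0.33 (SE 0.23, edgeR adjusted p = 0.422) with library 4 and −0.60 (SE 0.11, adjusted p = 0.000754) without it. *NEK2* (−0.57), which acts in centrosome separation, was called without library 4. *BUB1* (−0.46) and *TTK* (−0.55), the checkpoint kinases, were not, although both were with the GC offset.

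In the spindle checkpoint and anaphase machinery, 2 of 7 genes were called with all libraries, and all 7 without library 4 and with the GC offset. *BUB1B*, which encodes the checkpoint protein BubR1, was at 108, 95.7, 107 and 107 CPM in SCR (−dox) and 76.6, 59.96, 66.7 and 41.2 CPM in NAA40-KD (−dox) (log2 fold change −0.77, SE 0.19, edgeR adjusted p = 0.0412). *UBE2C*, the ubiquitin-conjugating enzyme that works with the anaphase-promoting complex, was at 64.8, 75.3, 63.7 and 63.1 CPM against 40.1, 30.9, 38.7 and 52.1 CPM (log2 fold change −0.71, SE 0.18, edgeR adjusted p = 0.0491). The groups of both genes were separate. *CDC20* was at 228, 227, 179 and 236 CPM against 146, 117, 162 and 284 CPM. Here library 4 again exceeded every SCR library, and the log2 fold change moved from −0.28 with it to −0.63 without it. *BUB3* (−0.56), *MAD2L1* (−0.75), securin (*PTTG1*, −0.52) and separase (*ESPL1*, −0.49) were below SCR without passing the test in all 8 libraries.

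The 7 genes of the kinetochore and of cohesion protection lay close together, between −1.01 and −0.71, and every one had groups that did not overlap. With all 8 libraries 0 were called by edgeR, although all 7 had an unadjusted p under 0.05, and DESeq2 called 3 and limma-voom 1. All 7 were called without library 4, at −0.78 to −0.52. *CENPF*, a kinetochore protein that builds up through G2, had the lowest p of these genes. It was at 265, 245, 270 and 231 CPM in SCR (−dox) and 185, 143, 180 and 95.6 CPM in NAA40-KD (−dox), and the log2 fold change was −0.74 (SE 0.20, edgeR adjusted p = 0.059). The Ndc80 complex genes *NDC80* (−0.75), *NUF2* (−0.71) and *SPC25* (−1.01) and the shugoshins *SGO1* (−0.76) and *SGO2* (−0.98), which guard centromeric cohesion, were all lowest in library 4.

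The chromosomal passenger complex, which corrects faulty attachments of chromosomes to the spindle, had 1 of 4 genes called lower with all 8 libraries and all 4 without library 4. *BIRC5* (ENSG00000089685), which encodes survivin, was at 88.2, 96.7, 76.7 and 129 CPM in SCR (−dox) and at 39.99, 32.9, 47.1 and 52.8 CPM in NAA40-KD (−dox). This was the member with the lowest fold change, −1.17 (SE 0.22, edgeR adjusted p = 0.0165), or 44.5% of the SCR level. *CDCA8*, which encodes borealin, was at −0.64 (adjusted p = 0.0547, edgeR) and *AURKB*, the kinase of the complex, at −0.50 (adjusted p = 0.199). *INCENP*, the scaffold, was at 83.9, 98.7, 82.1 and 84.6 CPM against 70.7, 55.6, 76.8 and 129 CPM. Its value was −0.06 (SE 0.25, edgeR adjusted p = 0.914) with library 4 and −0.37 (SE 0.11, adjusted p = 0.0135) without it, and *INCENP* is singled out after its values were seen.

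Of 8 mitotic kinesins, motor proteins that move along or take apart microtubules, 3 were called lower and 7 were called without library 4. *KIF4A*, a motor of chromosome arms and the central spindle, was at 60.3, 64.9, 63.5 and 62.0 CPM in SCR (−dox) and 39.3, 33.5, 42.1 and 26.4 CPM in NAA40-KD (−dox) (log2 fold change −0.82, SE 0.17, edgeR adjusted p = 0.0215). *KIF23*, the motor of centralspindlin, was at 109, 110.5, 108 and 107 CPM against 72.3, 59.1, 72.0 and 42.5 CPM (log2 fold change −0.82, SE 0.18, edgeR adjusted p = 0.0276). *KIF2C*, a microtubule depolymerase at centromeres, was at 109.97, 136, 115 and 125 CPM against 77.3, 55.5, 78.6 and 79.2 CPM (log2 fold change −0.74, SE 0.17, edgeR adjusted p = 0.0306). None of these 3 genes had overlapping groups. *KIF11*, the motor that pushes the spindle poles apart, was at −1.03 (SE 0.28, edgeR adjusted p = 0.0588). *KIF18A*, which limits chromosome movements at the spindle, was at −0.48 with overlapping groups and at −0.23 (adjusted p = 0.0683) without library 4.

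Among spindle assembly genes, *PRC1* and *TPX2* were called lower, and all 5 were called without library 4. *PRC1*, which bundles the microtubules of the central spindle and is the partner of KIF4A, was at 119, 118, 112 and 127 CPM in SCR (−dox) and at 78.1, 60.6, 82.5 and 64.2 CPM in NAA40-KD (−dox) (log2 fold change −0.73, SE 0.15, edgeR adjusted p = 0.0224). *TPX2*, the activator of Aurora A on spindle microtubules, was at 249.7, 263, 249 and 262 CPM against 185, 156, 190.1 and 139 CPM (log2 fold change −0.61, SE 0.14, edgeR adjusted p = 0.0356). The spread in SCR was small for both, and all 4 NAA40-KD (−dox) values lay below it. *HMMR* (−1.10), *NUSAP1* (−0.66) and *DLGAP5* (−0.67) had larger errors.

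The 3 cytokinesis genes differed from each other. *CEP55*, which recruits the abscission machinery, was at −0.75 (SE 0.24, edgeR adjusted p = 0.099) and had separate groups. *ANLN*, the scaffold protein anillin, was at −0.49. *ECT2*, the exchange factor that activates RhoA at the cell equator, was at 157, 139, 169 and 169 CPM in SCR (−dox) and at 184, 162, 184 and 54.2 CPM in NAA40-KD (−dox). Libraries 1 to 3 lay inside or above the SCR range and library 4 far below it, so *ECT2* went from −0.12 with library 4 to 0.15 (SE 0.092, edgeR adjusted p = 0.214) without it. With *CDC25B* it was 1 of the genes farthest from the rest of the group, and both are pointed out after their values were seen.

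**Figure D4:**
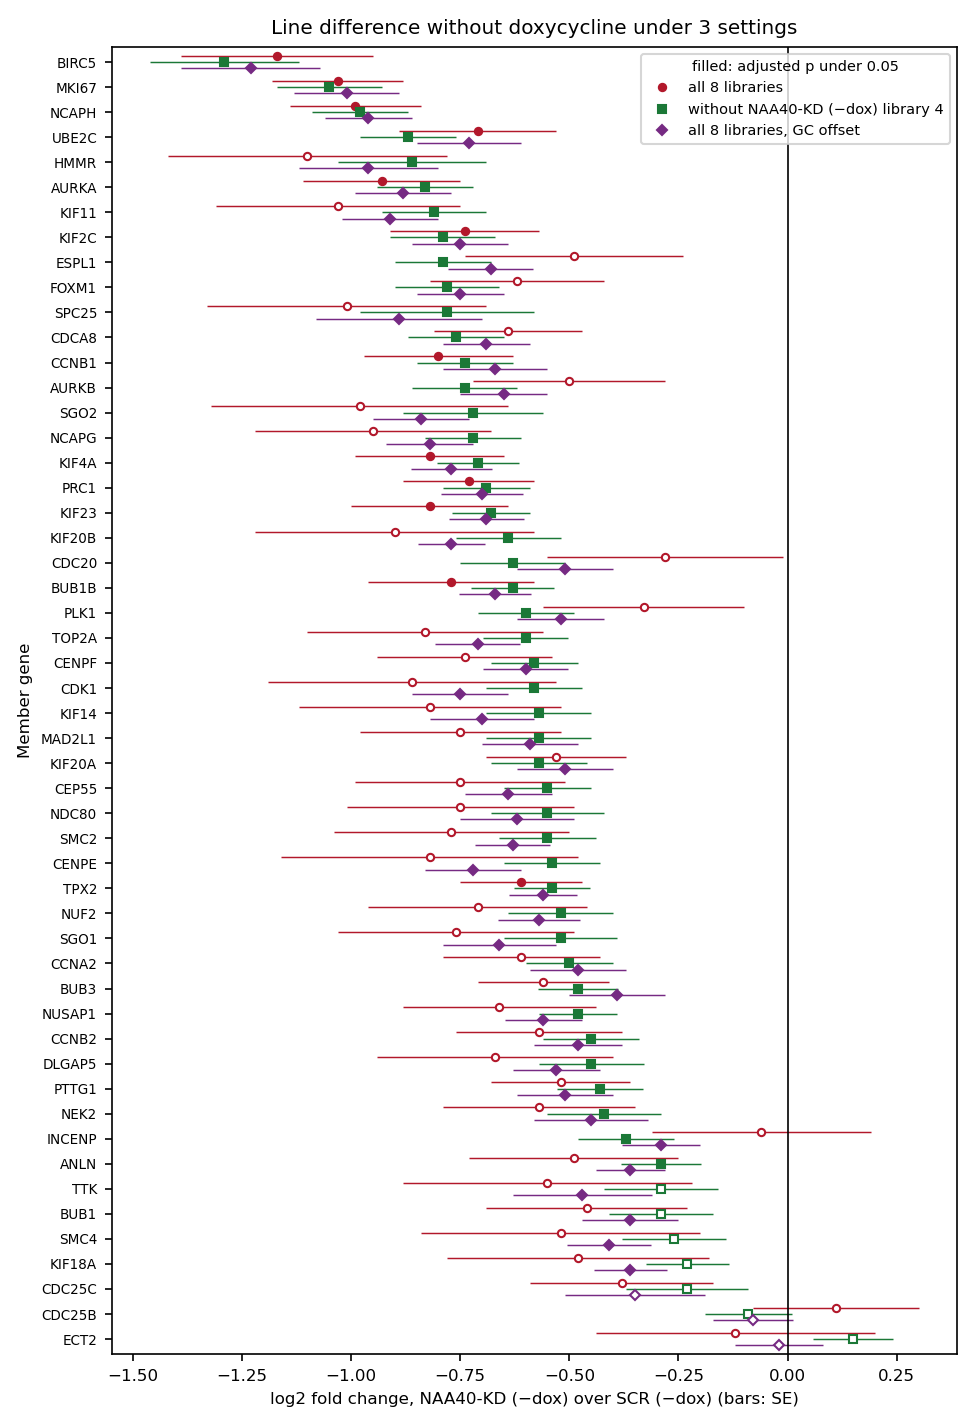
Log2 fold change of NAA40-KD (−dox) over SCR (−dox) (horizontal axis) for each of the 52 mitotic genes (vertical axis, ordered by the value without library 4). Red circles are the fit of all 8 libraries, green squares the fit without NAA40-KD (−dox) library 4 and purple diamonds the fit with a GC offset, with bars of 1 SE and filled symbols at an adjusted p under 0.05. Filled symbols number 12, 45 and 49, and the bars are widest in the fit of all 8 libraries.

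The comparison of the lines with dox asked the same of the (+dox) groups. Here the mitotic genes as a group were close to the SCR level, with 32 of 52 below 0 (50.5% of all 13869 genes) and a median of −0.07, beside 0.00 over all genes. A smaller set fell. In edgeR's quasi-likelihood test 10 members were called lower and 0 higher, against 13.7% of all genes called lower and 10.9% called higher, and 0 were past a log2 fold change of 1 (1.8% of all genes on the lower side). At an unadjusted p under 0.05 stood 16 members and 37.2% of all genes. The groups did not overlap in 13 members on the lower side (13.9% of all genes) and in 2, *BUB1B* and *SMC4*, on the higher side (13.2%). The calls among the members were thus all on the lower side, while those among all genes went both ways. With the GC offset 19 of 52 members were called lower and 0 higher, beside 16.6% of all genes called lower.

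*BIRC5* had the largest and most certain difference, at 90.6, 80.5, 121 and 96.1 CPM in SCR (+dox) and 46.6, 53.5, 49.1 and 52.6 CPM in NAA40-KD (+dox). The groups were far apart, with a log2 fold change of −0.94 (SE 0.11, edgeR adjusted p = 9.05e-06), or 52% of the SCR level. *CDC25B* (ENSG00000101224) was at 336, 396, 335 and 383 CPM against 233, 237, 222 and 231 CPM. This gene, which had no call without dox, had a log2 fold change of −0.65 (SE 0.085, edgeR adjusted p = 2.66e-05). *KIF2C* was at 119.9, 118, 139.7 and 122 CPM against 85.7, 86.2, 82.3 and 85.3 CPM, a log2 fold change of −0.56 (SE 0.084, edgeR adjusted p = 0.000131).

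The other 7 calls were spread over several roles. *UBE2C* was at 60.2, 67.2, 80.3 and 69.2 CPM in SCR (+dox) and 51.7, 49.0, 51.96 and 55.5 CPM in NAA40-KD (+dox) (log2 fold change −0.41, SE 0.097, edgeR adjusted p = 0.00516). *CDC20* was at 192, 186, 243 and 219 CPM against 148, 153, 175 and 171 CPM (log2 fold change −0.38, SE 0.097, edgeR adjusted p = 0.009). In both, the highest NAA40-KD (+dox) library stayed below the lowest SCR (+dox) library. The remaining calls were *PTTG1* (−0.45), *CCNB1* (−0.29, with 143, 134, 158 and 130.1 CPM against 109, 117, 115 and 121 CPM), *AURKB* (−0.32), *NEK2* (−0.30) and *TOP2A* (−0.27). *TOP2A* was at 199, 223, 198 and 166 CPM against 169.7, 171, 158 and 154 CPM, so its groups overlapped, and its adjusted p was 0.0427. *BIRC5*, *CDC25B*, *KIF2C*, *UBE2C* and *CDC20* stayed called whichever of the 8 libraries was left out. *CCNB1* and *AURKB* were called in 5 of 8 and *TOP2A* and *NEK2* in 2 of 8. With any of NAA40-KD (+dox) libraries 1, 2 and 3 left out 6 members were called lower. Of the 13756 to 13782 genes tested in those fits, 1346 to 1405 were called lower. Without SCR (+dox) library 4 there were 15 members, beside 1858 of 13711 genes, and with the GC offset 19 (16.6% of all genes), all lower.

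Several members that were well below SCR without dox had values near 0 with it. *MKI67* was at 576, 688, 405 and 637 CPM in SCR (+dox) and 590.5, 640.0, 649.7 and 648 CPM in NAA40-KD (+dox) (log2 fold change 0.13, SE 0.12, edgeR adjusted p = 0.463). *NCAPH* was at −0.07 (SE 0.086, adjusted p = 0.609) and *AURKA* at −0.16 (SE 0.089, adjusted p = 0.196). *CDK1*, at 122, 116, 126 and 70.2 CPM against 98.98, 112, 108 and 102 CPM, was at −0.05 (SE 0.13, edgeR adjusted p = 0.836). *FOXM1* was at 0.14 (SE 0.099, adjusted p = 0.334) and *PLK1* at −0.19 (SE 0.089, adjusted p = 0.134). By role, the kinetochore genes had a median of −0.06 with 0 of 7 called by edgeR, DESeq2 or limma-voom and 0 at an unadjusted p under 0.05, and the condensation genes a median of 0.03 with 1 of 6 called.

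The comparison of the lines without dox and that with dox share no library. Of the 12 members called lower without dox and the 10 with dox, 4 were the same, *CCNB1*, *UBE2C*, *BIRC5* and *KIF2C*. That is 33.3% of the former list and 40% of the latter, and it rests on the fit with NAA40-KD (−dox) library 4. Without that library 45 of the 52 members were called lower without dox (19.4% of all genes). Of the 10 genes called with dox, only *CDC25B* was then not among them. With 45 of 52 called, most of any 10 members would be shared, so this overlap shows no tie between the comparisons. The share of all genes called in both comparisons was not counted.

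**Figure D5:**
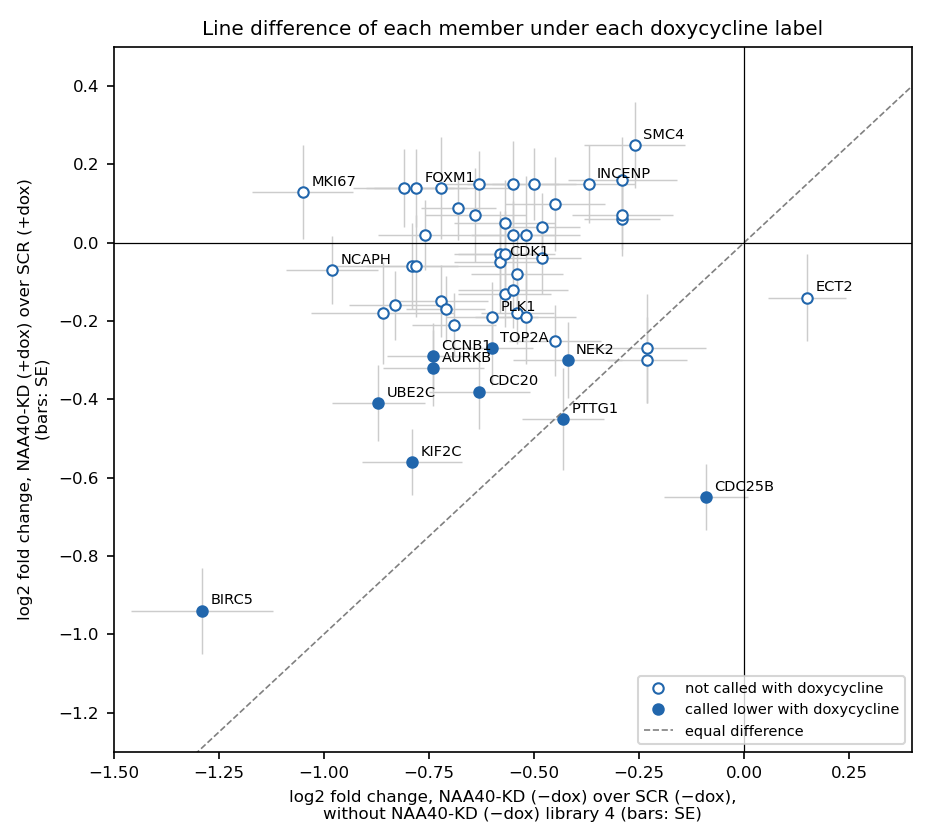
Log2 fold change of NAA40-KD (+dox) over SCR (+dox) (vertical axis) against that of NAA40-KD (−dox) over SCR (−dox) without NAA40-KD (−dox) library 4 (horizontal axis) for the 52 mitotic genes, with bars of 1 SE and a dashed line of equal difference. Filled circles are the 10 genes called lower with dox. Most genes lie left of the dashed line and near 0 on the vertical axis, BIRC5 is low on both axes, and CDC25B, at −0.09 and −0.65, is low on the vertical axis only.

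Whether the line difference itself changed with the dox label was tested as an interaction over all 16 libraries, the (+dox) difference minus the (−dox) difference. The median of the members was 0.67, beside −0.05 over all 14392 genes. In edgeR's quasi-likelihood test 11 members were called higher (4.31% of all genes) and 1 lower (4.91% of all genes). The highest were *MKI67* (1.18, SE 0.21, adjusted p = 0.00278) and *KIF11* (1.18, SE 0.31, adjusted p = 0.026). They were followed by *NCAPH* (0.94, SE 0.16, adjusted p = 0.00154), *KIF23* (0.92, adjusted p = 0.00739) and *BUB1B* (0.92, adjusted p = 0.00967), and then by *AURKA*, *CCNA2* and *FOXM1*, each at 0.77. *CDCA8* (0.68), *KIF4A* (0.65) and *PRC1* (0.52) completed the list. These are genes whose log2 fold change against SCR was lower without dox than with it. With dox, *NCAPH*, *AURKA*, *KIF4A* and *PRC1* were below 0. The other genes of the list were above 0 with dox, from 0.02 (*CDCA8*) to 0.15 (*BUB1B* and *CCNA2*).

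*CDC25B* was called in the other direction, at −0.75 (SE 0.20, edgeR adjusted p = 0.0295). Its difference from SCR was called with dox and not without it. For *BIRC5*, low under both labels, the interaction was 0.23 (SE 0.24, adjusted p = 0.587), and for *KIF2C* it was 0.19 (SE 0.17, adjusted p = 0.528), so a difference between the labels was not detectable for either at this spread. *NCAPH*, *MKI67*, *KIF23*, *BUB1B* and *AURKA* stayed called whichever of the 16 libraries was left out. Without NAA40-KD (−dox) library 4, 33 members were called higher (11.9% of all genes) and *CDC25B* lower (12.3%), and with the GC offset 38 were called higher (14.4%) and *CDC25B* lower (14.6%). Leaving out SCR (−dox) library 4 or NAA40-KD (+dox) library 2, 3 or 4 left 6 or 7 calls, all higher. In those fits 392 to 451 of all genes were called higher, against 620 with all 16 libraries.

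In the SCR line, no member passed the test for a difference with dox. Between SCR (+dox) and SCR (−dox) the members had a median of −0.07 and values from −0.27 to 0.13, and 0 of 52 were called by edgeR, as were 0% of all 13882 genes. DESeq2 and limma-voom also called 0, and the members with an unadjusted p under 0.05 numbered 0 in edgeR, 1 in DESeq2 and 0 in limma-voom (1.95% of all genes in edgeR). *BUB1B* had the lowest p, at −0.22 (SE 0.10, adjusted p = 1), from 108, 95.7, 107 and 107 CPM to 94.7, 93.4, 80.2 and 92.7 CPM. It and *NCAPH* (−0.16) were the members whose groups did not overlap, which held for 0.828% of all genes.

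In the NAA40-KD line the libraries labelled (+dox) were above those labelled (−dox) for most members, with a median of 0.56, beside −0.04 over all genes, and with 3 of 52 values below 0, beside 54.3% of all genes. This comparison shares its libraries with both line comparisons, so it is no separate evidence. With edgeR 10 members were called higher (4.71% of all 13844 genes) and 1 lower (5.5%). The most certain were *MKI67* (0.91, SE 0.13, adjusted p = 0.00459), *NCAPH* (0.78, SE 0.14, adjusted p = 0.00967), *KIF23* (0.85, SE 0.17, adjusted p = 0.0188) and *KIF4A* (0.66, SE 0.16, adjusted p = 0.0319). *CDC25B* was the member that was lower, at −0.82 (SE 0.17, adjusted p = 0.018). Without NAA40-KD (−dox) library 4, 44 members were called higher (25.8% of all genes) and 2 lower (26.6%), *CDC25B* and *ECT2* (−0.37, SE 0.053, adjusted p = 3.1e-06). Leaving out any other library left 2 to 6 calls, beside 380 to 913 of all genes called in either direction (1414 with all 8 libraries). With a block for the replicate number 3 members were called higher and 1 lower, beside 361 and 416 of all 13844 genes.

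Within the group of 52, features that the choice of genes did not use went with the size of the difference only in part. Without library 4, the 31 members whose promoter held the CHR core had a median of −0.58 in the comparison without dox, with 28 called lower. The 14 whose promoter did not had −0.53, with 11 called, beside 19.4% of all genes called lower in that fit. With all 8 libraries these medians were −0.75 and −0.59. With dox they were −0.03, with 2 of 31 called, and −0.20, with 6 of 14 called, beside 13.7% of all genes called lower. GC content separated the calls of edgeR without dox with all libraries. There 12 of the 26 members of higher GC content and 0 of the 26 of lower GC content were called, beside 3.54% of all genes called lower. Of those of lower GC content, 21 had an unadjusted p under 0.05 and DESeq2 called 11. Library 4 was tilted along GC content over all genes, and the share of all genes called was not counted by GC content. Without library 4 the members called numbered 23 of higher and 22 of lower GC content, with medians of −0.69 and −0.55, beside 19.4% of all genes. With dox, where that library takes no part, 8 of the 26 members of higher GC content and 2 of the 26 of lower GC content were called.

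Other genes of the same phase had values much like those of the members. Of 62 further G2/M genes 16 were called lower without dox and 0 higher (53 and 0 without library 4), with a median of −0.65, beside 3.54% of all genes called lower (19.4% without library 4). With dox 6 of the 62 were called lower and 1 higher, with a median of −0.08, beside 13.7% of all genes lower and 10.9% higher. Those called lower without dox include *ZWINT* (−1.38), a kinetochore protein, and *LMNB1* (−0.85), which encodes lamin B1. *CDCA5* (−0.92), which encodes sororin, a guard of cohesion, and *NCAPG2* (−0.98), a subunit of condensin II, were also called lower without dox. The kinase *WEE1*, which holds CDK1 inactive, was at −0.18 (adjusted p = 0.626, edgeR) without dox and −0.13 (adjusted p = 0.393) with it. The 31 S phase genes had a median of −1.09 without dox, with 20 called lower (31 without library 4), among them *GINS3* (−1.69), *MCM10* (−1.57), *POLA2* (−1.39) and *MCM3* (−1.42), which act in starting DNA replication. With dox their median was 0.13, with 2 called lower and 7 higher.

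Of 18 regulators of G2/M promoters, 3 were called lower without dox, beside 3.54% of all genes. These were the repressor *E2F8* (−0.80), the pocket protein gene *RBL1* (−1.09) and *E2F1* (−1.08), and the median over the list was −0.27. Without library 4, 7 were called lower and 2 higher, beside 2674 lower and 2347 higher of all 13751 genes. *MYBL2*, which encodes B-MYB, was at −0.88 (SE 0.25, edgeR adjusted p = 0.0681), and at −1.20 (SE 0.11, adjusted p = 1.36e-06) without library 4. With dox it was at −0.29 (adjusted p = 0.0382). *CDKN1A*, which encodes the CDK inhibitor p21, was at 0.42 (SE 0.18, edgeR adjusted p = 0.201) without dox and at −0.40 (adjusted p = 0.00191) with it, and the interaction was −0.80 (SE 0.19, adjusted p = 0.014).

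In 20 of the 52 members, exons overlap those of another gene. The summed overlap was largest in *PRC1*, at 3587 bases beside an exonic length of 5525. That sum adds the overlaps with *AC068831.7* and *PRC1-AS1*, so a base can count for each. Whether reads were counted by strand is not given in the sources used here, so reads of overlapping genes may have been split or lost, and the values of these genes, *CCNA2*, *FOXM1*, *PLK1*, *BUB1B*, *KIF2C*, *KIF4A*, *KIF23* and *PRC1* among them, are less certain. Nothing in the labels says that the 4 libraries of a group came from separate cultures, and the study's methods call them independent RNA samples, so the p-values measure the spread between these samples.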

How the data were processed

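RNA of 16 HCT116 libraries (4 groups of 4) was sequenced by the authors, who aligned the reads with STAR and deposited raw counts per gene from featureCounts, as the submitters' processing notes and the study's methods name them. The notes list hg38 beside GRCm38, and all 33937 identifiers in the table are human Ensembl genes. The kits for RNA extraction differ between the labels and the methods. Symbols came from the tables given with the data (33590 identifiers matched), and gene coordinates, exon length and GC content from GENCODE release 29 on GRCh38 (33811 matched). GC content is that of the longest transcript of each gene. The 52 members, the gene lists and the tests were chosen with earlier results of these data known.

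Counts were fitted in R 4.3.3 with edgeR 4.0.16 (robust quasi-likelihood, TMM, CPM above 1 in at least 4 libraries of the fit, two-sided, Benjamini-Hochberg over all genes tested), each pair of groups on its own 8 libraries and the interaction on all 16. A gene was called at an adjusted p under 0.05, and separately beyond a log2 fold change of 1. Standard errors are the log2 fold change over the square root of its F. Alternatives were DESeq2 1.42.0, limma 3.58.1 (voom), other scalings and filters, a replicate block, a GC offset per library (lowess, span 0.3), leaving out each library, and other thresholds. All 52 members were counted by role. Values by library were given for the members called without dox with all 8 libraries, for some of those called in other comparisons and for a few leading members. The fits were tried on simulated data for the comparison without dox, with the same relative spread for every gene and no library tilted along GC content. That trial does not cover a library such as NAA40-KD (−dox) library 4. Totals of 11065606 to 13855486 counts per library set the precision, and p-values measure the spread between libraries. Differences between libraries exceeded counting noise in every pair of replicates (chi-square per degree of freedom 1.74 to 140), so none was treated as a duplicate.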

Additional observations from a re-analysis of the deposited data

Results flagged for a closer look

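In the interaction test of edgeR (adjusted p under 0.05) 12 members were called, beside 1327 of all 14392 genes. With a library left out, 6 to 34 members were called. The change of the line difference, (+dox) minus (−dox) in log2 units, was 1.18 for *MKI67* and *KIF11* and 0.94 for *NCAPH*. It was 0.92 for *KIF23* and *BUB1B* and 0.77 for *AURKA*, *CCNA2* and *FOXM1*. *CDCA8* was at 0.68, *KIF4A* at 0.65, *PRC1* at 0.52 and *CDC25B* at −0.75.

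A single library lay far from the other 3 of its group in 9 of 88 groups of values examined by Dixon's test, and chance gives about 1 in 20. In NAA40-KD (−dox), *CDC25B* was at 551 CPM in library 4, the library with the GC tilt, and *KIF2C* was at 55.5 CPM in library 2. In SCR (−dox), *PLK1* was at 88.2 CPM and *CDC20* at 179 CPM in library 3, and *BUB1B* was at 95.7 CPM and *UBE2C* at 75.3 CPM in library 2. *BUB1B* was at 80.2 CPM in SCR (+dox) library 3 and *MKI67* at 590 CPM in NAA40-KD (+dox) library 1. The mean log2 level of the 52 members was −0.22 in SCR (+dox) library 4.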

How the results depend on the processing

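The median of the members kept its sign in every fit of each comparison, while the number called did not keep its size, and the cause was not tested. Without dox, 12 members were called, against 29 with DESeq2, 40 in a fit of all 16 libraries, 0 with a replicate block, 49 with the GC offset alone, with the block or, an alternative chosen after seeing the data, without NAA40-KD (−dox) library 4 as well, 2 at an adjusted p under 0.01 and 25 under 0.1. With the block, 39 members had an unadjusted p under 0.05. With a single library left out the counts ran from 2 to 45. With dox, 10 were called, against 3 with all 16 libraries, 19 with the GC offset, 18 with block and offset and 5 under 0.01, and 6 to 15 with a library left out. Within the NAA40-KD line, 11 were called, against 24 with DESeq2, 7 without the filter on low counts, 29 with all 16 libraries, 4 with the block, 45 with the offset, 46 with block and offset, 45 with the offset and without library 4, 2 under 0.01 and 21 under 0.1, and 2 to 46 with a library left out. In the interaction, 12 were called, against 20 with DESeq2, 6 without the filter, 39 with the offset, 40 with block and offset, 43 with the offset and without library 4, 4 under 0.01 and 20 under 0.1, and 6 to 34 with a library left out. The SCR line gave 0 members in every fit. The number called over all genes also moved. Without dox it was 892 of 13903, against 82 with the block and 4999 of 13879 with the offset. With dox it was 3402 of 13869, against 966 of 14392 with all 16 libraries and 4403 of 13848 with the offset. Within the NAA40-KD line it was 1414 of 13844, against 777 with the block and 6102 of 13823 with the offset. In the interaction it was 1327 of 14392, against 4165 of 14366 with the offset.

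Of the values of single genes under the alternatives, 804 kept direction and call, 78 gained a call, 121 lost one and 5 changed sign. The last were *CDK1* with dox, at 0.02 without SCR (+dox) library 1 and 0.03 without library 3 (−0.21 to 0.03 over all such fits), *MKI67* with dox, at −0.01 without SCR (+dox) library 3 (−0.01 to 0.23), and *PLK1* within the NAA40-KD line, at −0.04 and −0.13 without NAA40-KD (−dox) library 1 or 2 (−0.13 to 0.28). *NAA40* in NAA40-KD (+dox) was 108.9% to 112.8% of SCR with a library left out. The CHR core was in 51.1% of member promoters before the start. The replicate numbers were not taken to pair the samples, since same-numbered libraries had correlations of −0.514 to 0.302 over the comparisons, and of 0.0401 to 0.302 within the NAA40-KD line, where 3 of 4 (+dox) libraries matched the (−dox) library of their own number best. Counts of 47 or more per library limit the rarest members.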
